A study of Mus musculus with 28 samples.

Results

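The chemokines and chemokine receptors of sorted mouse hair follicle stem cells were compared between wild-type (WT) mice and mice lacking Alkbh5 conditionally (conditional knockout, cKO). Members were taken by symbol: every Ccl, Cxcl, Ccr, Cxcr or Ackr gene followed by a number, and Ccrl2, Cx3cl1, Cx3cr1, Xcl1 and Xcr1. The rule found 62 genes (39 ligands and 23 receptors) among 57054 gene IDs, and 57 of them were listed in the table of one dataset, hair germ SHERRY2. They lie largely in clusters, with 14 genes on chromosome 11, 14 on chromosome 9 and 11 on chromosome 5.

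Chemokines are small secreted or membrane-tethered proteins that guide migrating cells along gradients through G protein-coupled receptors. Atypical receptors (the Ackr genes and Ccrl2) bind ligands without the usual G protein signal, and several of them take up and degrade chemokine, which shapes the gradients. In skin, follicle and interfollicular keratinocytes are known sources of chemokines for T cells, Langerhans cells and other leukocytes.

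Alkbh5 encodes a demethylase that erases N6-methyladenosine (m6A) from RNA. All mice were at postnatal day 69, and the series title sets the study at the step from telogen, the resting phase of the follicle, into anagen, its growth phase. Bulge stem cells, the long-lived reserve of the follicle, were profiled with SHERRY2, in which a transposase fragments and tags hybrids of RNA and cDNA. Hair germ stem cells, which lie below the bulge, were profiled once with SHERRY2 and once with SMART-seq, which amplifies full-length cDNA. Each of the 3 datasets held 2 WT and 2 cKO mice, both genotypes sorted by flow cytometry from skin. The labels give the genotypes only as wild-type and Alkbh5 cKO. The Cre driver, the deleted exon, the sorting markers and the sex of the mice are unstated in the sources used here, and so is whether WT mice carried floxed alleles or Cre.

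Upstream sequences of the 4 genes that changed in the bulge, and of Ccl20, the only tested member higher in both cKO bulge libraries, are shown because inflammatory chemokine genes are textbook targets of NF-kB and AP-1. Each line gives the 250 bases before a RefSeq transcription start on GRCm38.p6, 5′ to 3′. Capitals mark matches on either strand to the AP-1 motif TGANTCA or to the NF-kB consensus.
Ccl27a (chr4:41770213-41770462, minus strand): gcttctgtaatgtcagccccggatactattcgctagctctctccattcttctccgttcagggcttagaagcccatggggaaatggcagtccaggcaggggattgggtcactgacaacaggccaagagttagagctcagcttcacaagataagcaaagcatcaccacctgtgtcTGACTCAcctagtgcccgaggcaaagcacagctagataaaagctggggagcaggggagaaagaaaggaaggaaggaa
Ccrl2 (chr9:111057519-111057768, minus strand): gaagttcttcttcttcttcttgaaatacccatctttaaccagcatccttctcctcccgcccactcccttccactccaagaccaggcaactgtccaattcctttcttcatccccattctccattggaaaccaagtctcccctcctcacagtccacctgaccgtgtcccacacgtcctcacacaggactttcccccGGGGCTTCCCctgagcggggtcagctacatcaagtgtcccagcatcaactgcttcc
Ackr3 (chr1:90203730-90203979, plus strand): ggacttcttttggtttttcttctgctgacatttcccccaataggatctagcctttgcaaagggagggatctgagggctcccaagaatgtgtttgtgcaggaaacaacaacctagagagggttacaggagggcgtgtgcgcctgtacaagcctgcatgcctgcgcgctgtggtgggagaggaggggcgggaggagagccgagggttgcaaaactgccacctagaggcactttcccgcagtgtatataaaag
Ackr4 (chr9:104126644-104126893, minus strand): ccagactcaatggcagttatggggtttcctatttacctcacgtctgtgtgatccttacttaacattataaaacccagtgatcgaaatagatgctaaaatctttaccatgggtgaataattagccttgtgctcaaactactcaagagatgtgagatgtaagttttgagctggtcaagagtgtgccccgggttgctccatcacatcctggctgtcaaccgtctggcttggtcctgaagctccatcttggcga
Ccl20 (chr1:83116516-83116765, plus strand): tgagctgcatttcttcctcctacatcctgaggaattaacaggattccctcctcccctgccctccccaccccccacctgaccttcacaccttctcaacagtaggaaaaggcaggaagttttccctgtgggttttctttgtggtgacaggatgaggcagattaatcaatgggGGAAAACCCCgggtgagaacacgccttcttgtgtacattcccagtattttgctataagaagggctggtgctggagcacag

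The search covered 300 bases, 250 before and 50 after each start, and the 2 motifs do not overlap at any match shown. Over 32851 RefSeq promoters of that length, 7.81% held the AP-1 letters and 8.46% the NF-kB consensus. Among 56 windows of the 47 members matched by symbol, 9 held an AP-1 match and 13 an NF-kB match. Ccl27a, which has 3 annotated starts, had an AP-1 match 77 bases before the start shown and an NF-kB match 30 bases after it. Ccrl2, also with 3 starts, had its NF-kB match 56 bases before the start shown, and Ccl20 had its match 80 bases before its start. Neither set of letters was in the window of Ackr3 or Ackr4, nor in the windows of the other starts of Ccl27a and Ccrl2. For Ccl27a and Ccrl2 the start shown is thus the only one with a match. Which start the cells used was not measured, and a match describes letters only.

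Libraries differed in depth and in how well the knockout showed. Reads in genes numbered 14676168 to 21187283 in the bulge, 9001396 to 14416601 in SMART-seq and 488648 to 2317407 in hair germ SHERRY2. Alkbh5 stood at 107 and 96.1 CPM (counts scaled to a common library total) in the WT bulge and at 4.21 and 2.38 in the cKO. In hair germ SHERRY2 the 2 WT libraries held 95 and 30 of its reads, and the 2 cKO libraries 27 and 16. In SMART-seq it was at 136 and 94.2 CPM in WT and at 83.5 and 105.8 in the libraries labelled cKO, so the groups overlapped there. Olfactory and vomeronasal receptor genes, with no known role in these cells, served as a measure of background: 84.4 to 93.8% of them had a read in hair germ SHERRY2, 2.20 to 2.70% in the bulge and 1.84 to 3.24% in SMART-seq. Transcripts of the Y chromosome marked WT mouse 2 in the bulge, cKO mouse 1 in hair germ SHERRY2 and both mice numbered 2 in SMART-seq. With 2 against 2 libraries an exact permutation test cannot go below p = 0.333, so tests come from models across all genes. Markers fixed for follicle stem cells were present, but their sum is led by Krt5, Krt14 and Krt15, and the first pair marks basal keratinocytes in general. Of the more specific ones, Sox9 ranged from 57.2 to 129 CPM in the bulge, 512 to 665 in SMART-seq and 18.0 to 52.8 in hair germ SHERRY2, and Cd34, which marks the bulge, from 136 to 366, 95.1 to 461 and 15.5 to 30.0. Cd34 thus did not separate the bulge from hair germ SMART-seq libraries, and both genes were lower in hair germ SHERRY2 than in either other dataset. CPM of hair germ SHERRY2 were rescaled from the deposited normalized counts, unlike those of the other datasets.

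In the bulge, 18 members had no read in any library, 44 had at least 1 read and 20 averaged 1 CPM or more. CPM here is scaled by the trimmed mean of M-values (TMM), which evens out composition between libraries. At 0 reads, 3 reads per library set the limit of detection at 0.143 to 0.213 CPM, for counting error only. Members without a read included the CC ligands Ccl3, Ccl4, Ccl8, Ccl11 and Ccl12, the receptors Ccr3, Ccr6 and Ccr8, and Xcr1. A few genes made up most of the signal, and Cxcl14 alone held 34.8% of all member reads.

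Per exonic length (FPKM, fragments per kilobase of exon, scaled by library total), Cxcl14, an epithelial chemokine, was highest in WT bulge cells, at 318 and 253. Ccl27a, the keratinocyte chemokine that draws Ccr10-bearing T cells to skin, followed at 88.3 and 113, and Ackr4, a scavenger of Ccl19, Ccl21 and Ccl25, at 54.8 and 45.4. Next came Cxcl16, the membrane-bound ligand of Cxcr6, at 32.8 and 37.1, and Ackr3, a scavenger of Cxcl12, at 33.6 and 29.2. Those last 2 genes overlapped, so their order is not resolved. Cxcl12, the ligand of Cxcr4, stood at 12.9 and 16.4, and Cx3cl1, the membrane-tethered fractalkine, at 7.25 and 7.94.

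**Figure D1:**
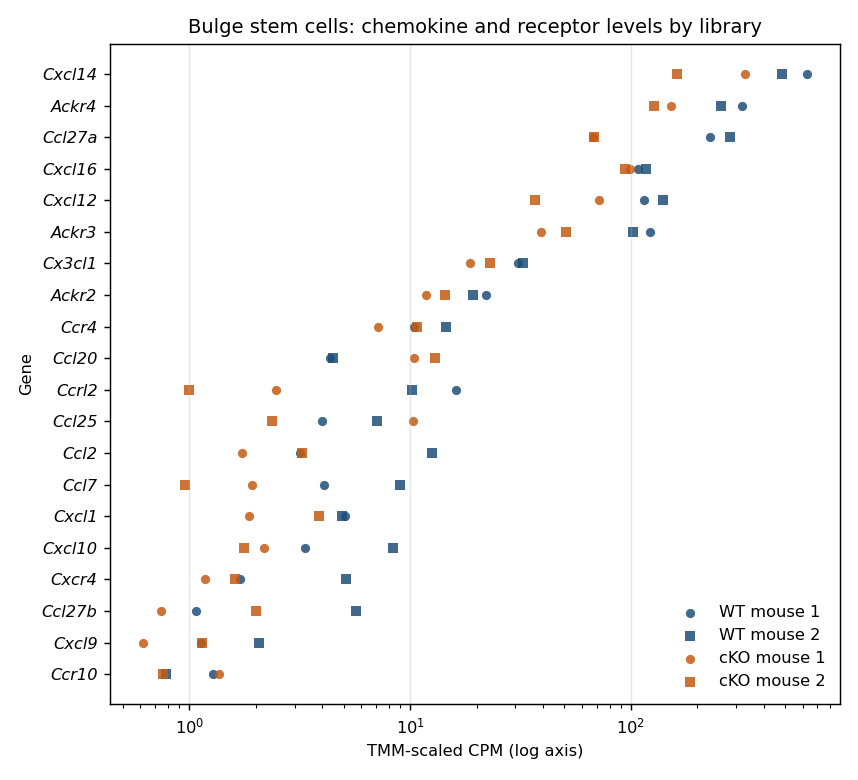
Levels of the 20 members averaging at least 1 CPM in the bulge, one row per gene, on a log axis of TMM-scaled CPM; blue is WT, orange is cKO, circles are mouse 1 and squares mouse 2 (1 library each). Ccl27a, Ackr3, Ackr4 and Ccrl2 have both orange points left of both blue ones, and Ccl20 has them to the right.

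Bulge cells of cKO mice had less chemokine and receptor RNA in sum. All 62 members together came to 1632 and 1521 CPM in the WT mice and to 833.5 and 622 in the cKO mice. Ligands summed to 1138 and 1112 CPM in WT against 617.5 and 414 in cKO, and receptors to 494 and 409 against 216 and 209. Of 22 members with enough reads to test, 4 fell (Ccl27a, Ackr3, Ccrl2 and Ackr4) and 0 rose at an adjusted p under 0.05 in edgeR's quasi-likelihood test, where 3.04% of 15672 genes were called (1.6% lower and 1.44% higher). These tested genes had a median log2 fold change of -0.94, beside -0.01 over all genes, and 18 of them were negative. In 13 of the 22 both cKO libraries lay below both WT libraries and in 1 above, beside 26.2% and 24.7% of all genes tested. Leaving out cKO mouse 1 gave 9 calls (adding Ccl7, Ccl20, Cxcl10, Cxcl12 and Cxcl14), leaving out cKO mouse 2 gave 7 (adding Ccl2, Ccl7 and Cxcl12) and leaving out WT mouse 1 gave 3, while without WT mouse 2 the same 4 were called and the median was -0.51. Over all genes these fits called 9.53%, 4.45%, 2.80% and 1.28%, in that order. Since RNA came from pools of cells, fewer cells of a type and less RNA per cell cannot be told apart.

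Ccl27a was the member with the smallest p. It measured 227 and 280 CPM in the WT mice and 67.2 and 67.7 in the cKO mice. The cKO mean was 26.6% of WT and the groups lay far apart (log2 fold change -1.91 ± 0.17 SE, edgeR adjusted p = 0.00264). Ccl27a overlaps Il11ra1, an interleukin 11 receptor gene on the opposite strand, and the sources used here do not say whether counting used strand. Il11ra1 itself measured 130 and 163 CPM in WT and 80.3 and 56.7 in cKO and fell as well (log2 fold change -1.10 ± 0.21, edgeR adjusted p = 0.0375), so reads of the pair cannot be told apart. In the near-identical copy Ccl27b, 21 and 80 reads were counted in WT against 12 and 42 in cKO, and its level is uncertain because reads of the copies may be split.

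Atypical receptors held 3 of the 4 calls: of the 5 listed, 4 were tested and 3 fell, beside 1.6% of all genes tested. Their summed level was 479 and 386.5 CPM in WT and 205 and 193 in cKO. Ackr4 measured 319 and 255 CPM in the WT mice against 152 and 127 in the cKO mice. No cKO value reached a WT value, and the mean was 48.6% of WT (log2 fold change -1.04 ± 0.18, edgeR adjusted p = 0.0283). It lies opposite Acad11, an acyl-CoA dehydrogenase gene, which went the other way at 84.4 and 74.5 CPM in WT and 113.9 and 121 in cKO without passing the test (edgeR adjusted p = 0.0911).

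Ackr3 stood at 122 and 102 CPM in the WT mice and at 39.0 and 50.8 in the cKO mice. Both cKO values were below both WT values, with the cKO mean at 40.1% of WT (log2 fold change -1.32 ± 0.18, edgeR adjusted p = 0.0152). No other gene of the table overlaps it. Ccrl2, an atypical receptor that binds the attractant chemerin, had 16.2 and 10.2 CPM in WT and 2.48 and 0.999 in cKO. That is 13.1% of WT in the mean, from 317 and 144 reads down to 40 and 21 (log2 fold change -2.95 ± 0.49, edgeR adjusted p = 0.0255). Without WT mouse 1 the edgeR adjusted p of Ccrl2 was 0.0752. The remaining tested member of the group, Ackr2, a scavenger of inflammatory CC chemokines, measured 22.1 and 19.3 CPM in WT and 11.8 and 14.4 in cKO, which did not pass (log2 fold change -0.66 ± 0.22, edgeR adjusted p = 0.158). Ackr1 was too low to test.

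Homeostatic CXC genes showed the same order of groups in the 5 tested, beside 26.2% of all genes tested. Only Ackr3, listed here beside its ligand, fell. Cxcl12 measured 114 and 140 CPM in WT and 71.4 and 37.0 in cKO (log2 fold change -1.23 ± 0.29, edgeR adjusted p = 0.0688). Cxcl14 measured 629 and 483 in WT and 329 and 162.5 in cKO (log2 fold change -1.18 ± 0.32, edgeR adjusted p = 0.0993). In both genes every cKO library was below every WT library, and cKO mouse 1 stood well above cKO mouse 2. Leaving out single libraries, log2 fold changes ran from -1.75 to -0.84 for Cxcl12 and -1.74 to -0.77 for Cxcl14. Their calls turned with the setting. Cxcl12 passed in DESeq2, Cxcl14 in edgeR with mouse number as a block, and both in edgeR with no filter on low counts. Neither passed with relative log expression size factors. Cxcl16 was close between genotypes, at 107 and 117 CPM in WT and 98.7 and 93.6 in cKO (log2 fold change -0.22 ± 0.14, edgeR adjusted p = 0.464). Cxcr4, the signalling receptor for Cxcl12, was low, at 1.69 and 5.12 CPM in WT and 1.18 and 1.62 in cKO (log2 fold change -1.26 ± 0.64, edgeR adjusted p = 0.344).

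Among CC genes of skin and epithelium 7 were tested, of which Ccl27a fell and 0 rose, beside 1.6% and 1.44% of all genes tested. Ccl20, the ligand of Ccr6 that draws Langerhans cell precursors and some T cells, measured 4.34 and 4.48 CPM in WT and 10.5 and 12.9 in cKO. Both cKO mice were above both WT mice, but the difference did not pass (log2 fold change 1.41 ± 0.30, edgeR adjusted p = 0.0519). Its call turned with the setting: it passed in DESeq2 (adjusted p = 0.00578) and in edgeR with relative log expression (RLE) size factors (adjusted p = 0.0472), and leaving out single libraries gave edgeR adjusted p-values of 0.00145 (without cKO mouse 1) to 0.188 (without WT mouse 2). Ccl25, the ligand of Ccr9, had 3.99 and 7.04 CPM in WT and 10.3 and 2.38 in cKO, so the cKO mice enclosed the WT mice. Ccr4, a receptor of skin-homing T cells, was at 10.4 and 14.5 CPM in WT and 7.12 and 10.8 in cKO, with overlapping groups (log2 fold change -0.47 ± 0.31, edgeR adjusted p = 0.478). Ccr10, the receptor of Ccl27a, was near 1 CPM in all 4 libraries (0.761 to 1.36). Ccl25 overlaps Elavl1 and Ccr10 overlaps Cntnap1, each on the opposite strand, so reads of these pairs cannot be told apart either.

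Inflammatory and interferon-induced ligands were low. Ccl2, Ccl7, Cxcl10 and Cxcl9 varied between the WT mice, while Cxcl1 was even between them, as was Cx3cl1 at a higher level. Ccl2, which attracts monocytes through Ccr2, had 3.17 and 12.6 CPM in WT and 1.73 and 3.23 in cKO (log2 fold change -1.64 ± 0.66, edgeR adjusted p = 0.229), and WT mouse 1 lay among the cKO mice. Without WT mouse 2 the log2 fold change of Ccl2 was -0.35, that of Cxcl10 -0.77 and that of Cxcr4 -0.28. Ccl7, a neighbour and relative of Ccl2, had 4.09 and 9.03 in WT and 1.92 and 0.951 in cKO without overlap (log2 fold change -2.20 ± 0.57, edgeR adjusted p = 0.0864). Its adjusted p was 0.0071 in DESeq2 and 0.437 in edgeR without WT mouse 2, where its log2 fold change was -1.53. Cxcl10, which draws Cxcr3-bearing T cells, had 3.32 and 8.32 CPM in WT and 2.17 and 1.76 in cKO (log2 fold change -1.56 ± 0.53, edgeR adjusted p = 0.164). It overlaps Art3 on the opposite strand, which measured 12.1 and 9.67 CPM in WT and 8.42 and 8.04 in cKO. Cxcl9 reached 0.619 to 2.06 CPM and overlapped. Cxcl1, a neutrophil attractant, measured 5.06 and 4.91 in WT and 1.86 and 3.85 in cKO (log2 fold change -0.79 ± 0.46, edgeR adjusted p = 0.413). Cx3cl1 stood at 30.9 and 32.6 CPM in WT and 18.8 and 22.9 in cKO, apart but not past the threshold (log2 fold change -0.60 ± 0.19, edgeR adjusted p = 0.133).

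**Figure D2:**
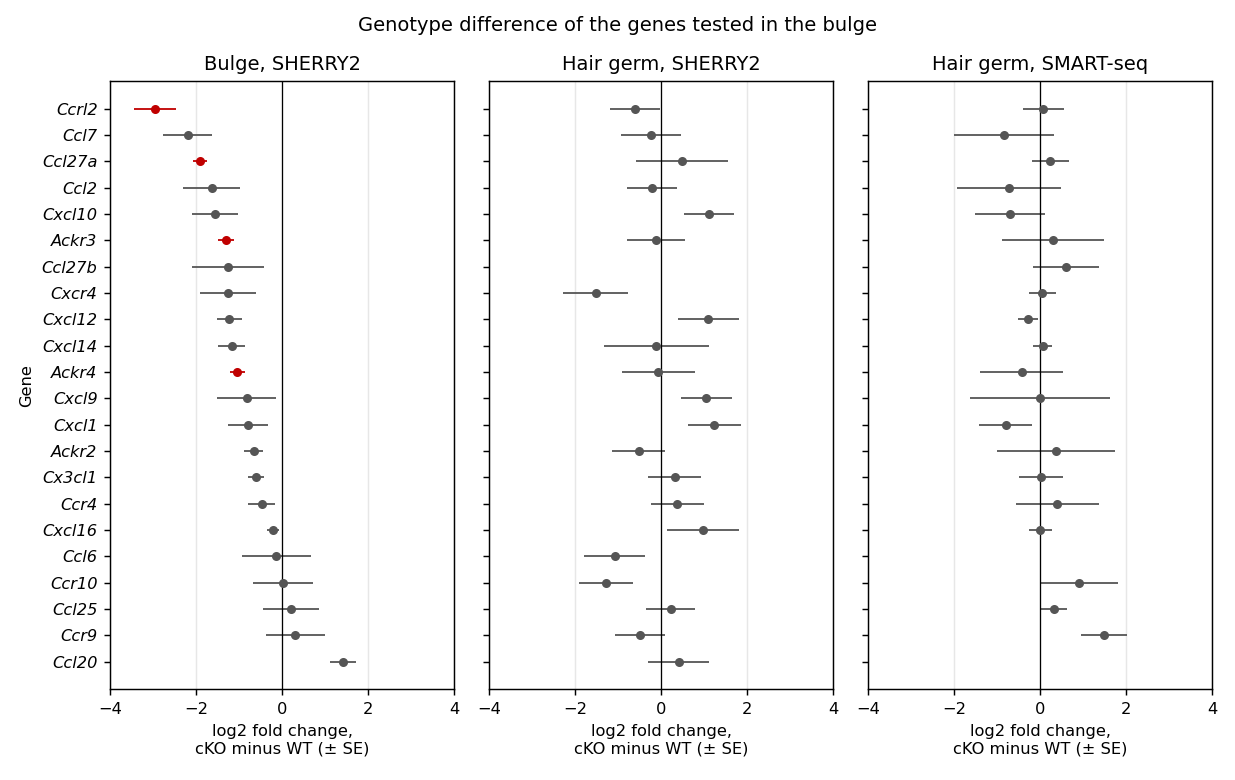
Log2 fold change (cKO minus WT) with its standard error for the 22 members tested in the bulge, in the fit of each dataset (2 against 2 libraries each; blank where a gene was not tested); red marks an adjusted p under 0.05. The 4 red points, Ccrl2, Ccl27a, Ackr3 and Ackr4, are all in the bulge panel and negative.

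Markers of immune cells moved with genotype in the bulge. The summed level of 15 leukocyte, macrophage and dendritic cell markers was 332 and 261 CPM in WT and 138 and 91.0 in cKO. In 12 of the 15 both cKO libraries lay below both WT libraries, beside 26.2% of all genes tested. Of the 12 tested, Cd74, H2-Aa and H2-Ab1, genes of antigen presentation, fell in edgeR, beside 1.6% of all genes tested. T cell markers summed to 23.7 and 20.1 CPM in WT and 6.93 and 3.76 in cKO, and Cd3g, a subunit of the T cell receptor complex, was the only one of 6 tested that fell, while Cd4 and Cd8a had at most 2 reads in any library. Neutrophil markers stayed at or under 0.904 CPM in sum, with Ly6g and Elane at 0. Fibroblast markers summed to 19.5 and 10.3 CPM in WT and 23.4 and 10.99 in cKO. Markers of differentiated epidermis, led by Krt10 and Krt1, were present at 4677 and 5116 CPM in WT and 4633 and 4412 in cKO. The part of these cells in the chemokine differences was not tested.

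Genes around the chemokine pathway were read from lists. Over all genes tested in the bulge, 1.6% fell, 1.44% rose and the median log2 fold change was -0.01. Of 25 NF-kB targets and inflammatory cytokines of keratinocytes, 23 were tested in the bulge, 5 fell and 0 rose, with a median log2 fold change of -0.52. The genes that fell encode brakes on NF-kB signalling or on inflammatory mRNA (Nfkbia, Tnfaip3 and Zc3h12a) and the transcription factors Cebpb and Cebpd, with log2 fold changes of -1.59, -1.68, -1.87, -1.22 and -2.22. Cytokine genes of that list did not pass, such as Il1a (log2 fold change -0.39, edgeR adjusted p = 0.798), Tnf (-1.17, edgeR adjusted p = 0.515) and Il6 (-3.39, edgeR adjusted p = 0.109). Of 18 interferon response genes, 14 were tested and only Irf1, an interferon-induced transcription factor, fell (log2 fold change -1.33, edgeR adjusted p = 0.0103). Among 28 tested genes of chemokine receptor signalling, Rgs2, a regulator that shortens G protein signals, fell (log2 fold change -2.22, edgeR adjusted p = 0.0167) and Ptk2b, a cytoplasmic tyrosine kinase, rose (0.90, edgeR adjusted p = 0.0400). In both hair germ datasets 0 genes of these lists passed, beside 0% of all genes tested in SMART-seq and 0.0077% in SHERRY2.

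Hair germ cells by SMART-seq gave 47 members with a read and 21 at 1 CPM or more. Cxcl14 was again highest per length, at 312 and 278 FPKM in WT and 306 and 317.5 in the libraries labelled cKO, and it held 46.0% of member reads. Ccl27a (24.3 to 55.2 FPKM over the 4 libraries) and Cxcl12 (33.7 to 46.0) came next and overlapped. Cxcr4 stood at 5.55 to 7.25 FPKM there, beside 0.688 to 2.71 in the bulge, and Ackr3 at 0.199 to 4.15 beside 12.3 to 33.6. Library type differs with cell type in that contrast, so their parts cannot be told apart. In hair germ SHERRY2, which shares the library type of the bulge, Cxcr4 stood at 0 to 2.56 FPKM and Ackr3 at 6.07 to 17.0. Both ranges overlap those of the bulge. Cxcr4 was above the 95th percentile of olfactory and vomeronasal receptor genes in 0 of those 4 libraries.

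By genotype label, 0 of 25 members tested in SMART-seq passed in edgeR's quasi-likelihood test and 0 of 47 in DESeq2, where edgeR called 0% of 17547 genes. In edgeR 1 member had an unadjusted p under 0.05, beside 1.02% of all genes tested. Both labelled cKO libraries were below both WT libraries in 1 member of 25 and above them in 4, beside 12.5% and 11.8% of all genes. The tested members had a median log2 fold change of 0.06, which was 0.82 without WT mouse 1 and -0.25 without WT mouse 2. Cxcl14 measured 588 and 502 CPM in WT and 550 and 584 in the libraries labelled cKO (log2 fold change 0.06 ± 0.22, edgeR adjusted p = 1). Ccl27a had 135 and 57.1 against 129 and 97.5 CPM (0.23 ± 0.43, edgeR adjusted p = 1), and Cxcl12 had 388 and 289 against 283 and 277 (-0.27 ± 0.23, edgeR adjusted p = 1). In Cxcl14 and Ccl27a the groups overlapped, and in Cxcl12 they were apart by a small step.

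Members furthest from 0 by label in SMART-seq were mostly low. Ccl19, a lymphoid homing chemokine, had 6 and 2 reads in the WT libraries against 13 and 12 in those labelled cKO (log2 fold change 1.87 ± 0.90, edgeR adjusted p = 1). Ccr9, the receptor of Ccl25, had 16 and 14 reads against 38 and 34 (1.48 ± 0.54, edgeR adjusted p = 1), and it overlaps other genes. Ccr10 (0.91 ± 0.90), Ccl7 (-0.84 ± 1.16) and Cxcl1 (-0.81 ± 0.62) had overlapping groups. Cxcr4 was even across libraries, at 10.7 and 11.45 CPM in WT and 9.87 and 13.2 in the libraries labelled cKO. Ccl25 ranged from 9.59 to 14.3 CPM, and Ccrl2 from 2.56 to 3.94 with overlapping groups. The members left at 1 CPM or more in the mean were Cxcr6 (3.07 CPM), Ccr4 (2.36) and Ccl28 (2.12).

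The stronger division of the SMART-seq libraries ran by mouse number rather than by label. In 11 of 21 members at 1 CPM or more, both libraries numbered 1 were above both numbered 2, in 2 they were below, and in 8 neither held, beside 22.9% and 20.9% of all genes at that level. Ackr4 had 143 CPM in WT mouse 1 and 93.2 in the library labelled cKO mouse 1, but 20.8 and 28.1 in the libraries numbered 2. Cxcl16 showed 89.0 and 75.0 CPM against 13.9 and 27.8. For Ccl2 the values were 12.7 and 6.88 against 1.11 and 1.45 CPM, and for Cxcl10 they were 10.2 and 7.39 against 4.44 and 1.56. Genes of unlike role thus shared the division: a scavenger receptor, a membrane-bound ligand and inflammatory ligands. Cxcl16 overlaps Zmynd15 and Cxcl10 overlaps Art3, both on the opposite strand. These neighbours divided by number too (Zmynd15 32.6 and 27.0 against 7.265 and 7.715 CPM, Art3 12.5 and 17.9 against 6.92 and 6.26). With the use of strand unstated, reads of Cxcl16 or Cxcl10 and of the neighbour cannot be told apart.

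Ackr3 had 7.73 and 13.7 CPM in the libraries numbered 1 and 4.10 and 0.671 in those numbered 2. Cx3cl1 had 22.8 and 19.1 against 8.72 and 12.9 CPM, and Cxcl9 had 8.16 and 10.5 against 2.56 and 0. Ackr2 had 1.72 and 2.19 against 0.171 and 0.224 CPM. In these genes the libraries numbered 1 were also the higher ones. Markers of differentiated epidermis moved the same way. They summed to 463 and 475 CPM in the libraries numbered 1 and to 66.1 and 138 in those numbered 2. The fibroblast sum was higher there too (93.0 and 52.4 against 22.1 and 19.0), led by Col1a2 (84.7 and 24.1 against 4.19 and 11.5). Of the other fibroblast markers, Col1a1 divided likewise, Dcn, Col3a1 and Pdgfrb did not, and Pdgfra and Lum ran the other way. Melanocyte markers ran opposite, with 25.9 and 24.3 against 125 and 171 CPM, and Xist had 3043 and 2841 CPM against 7.52 and 64.5. Leukocyte markers stood at 171 CPM in the library labelled cKO mouse 2 and at 34.7 to 50.6 in the others. Number, sex-linked transcripts and these markers cannot be told apart in 4 libraries.

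**Figure D3:**
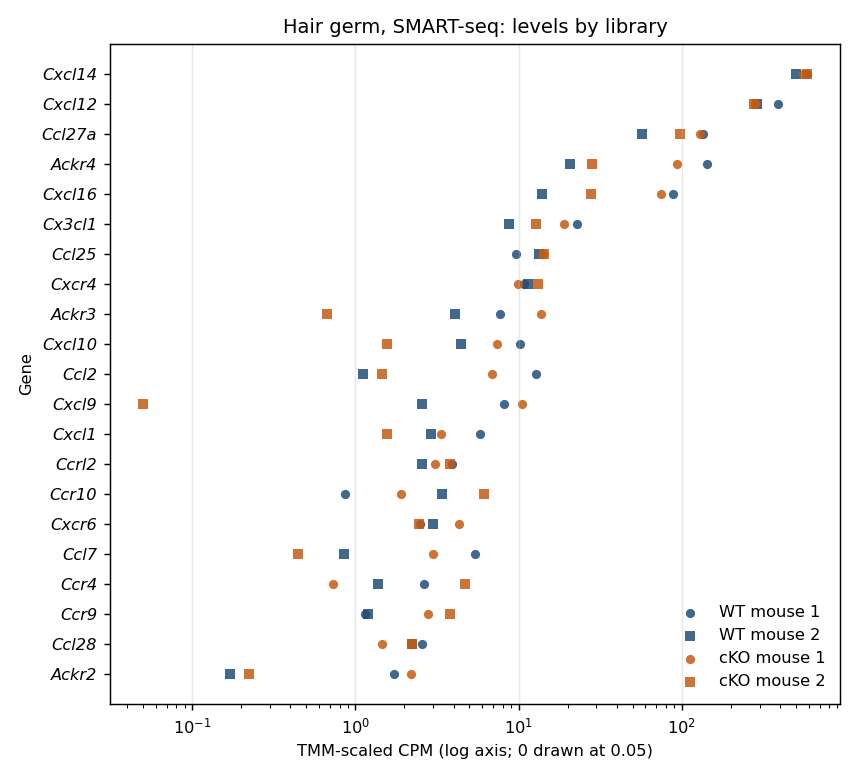
Levels of the 21 members averaging at least 1 CPM in hair germ SMART-seq, on a log axis of TMM-scaled CPM (0 drawn at 0.05), with WT in blue, the libraries labelled cKO in orange, mouse 1 as circles and mouse 2 as squares. For Ackr4, Cxcl16 and Ccl2 the circles lie right of the squares in both colours, while the points of Cxcl14 and Cxcr4 lie close together.

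Hair germ SHERRY2 libraries carried a broad low signal, so members were read against the olfactory and vomeronasal receptor genes. The 95th percentile of those genes was 1.87 to 6.67 FPKM, and 8 members were above it in all 4 libraries: Cxcl14, Ccl27a, Cxcl16, Ackr4, Ackr3, Ccrl2, Ccl2 and Cx3cl1. All 57 listed members had a read, which includes genes without a read in the bulge such as Ccl3, Ccl8 and Ccr3. The remaining 49 members were at or under that level in at least 1 library. These 8 with Cxcl12 (9.44 FPKM in the mean) and Ackr2 (7.33) were the 10 highest, and the lowest of the 10 was Cx3cl1 (6.64), just under Ccl2 (6.76).

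**Figure D4:**
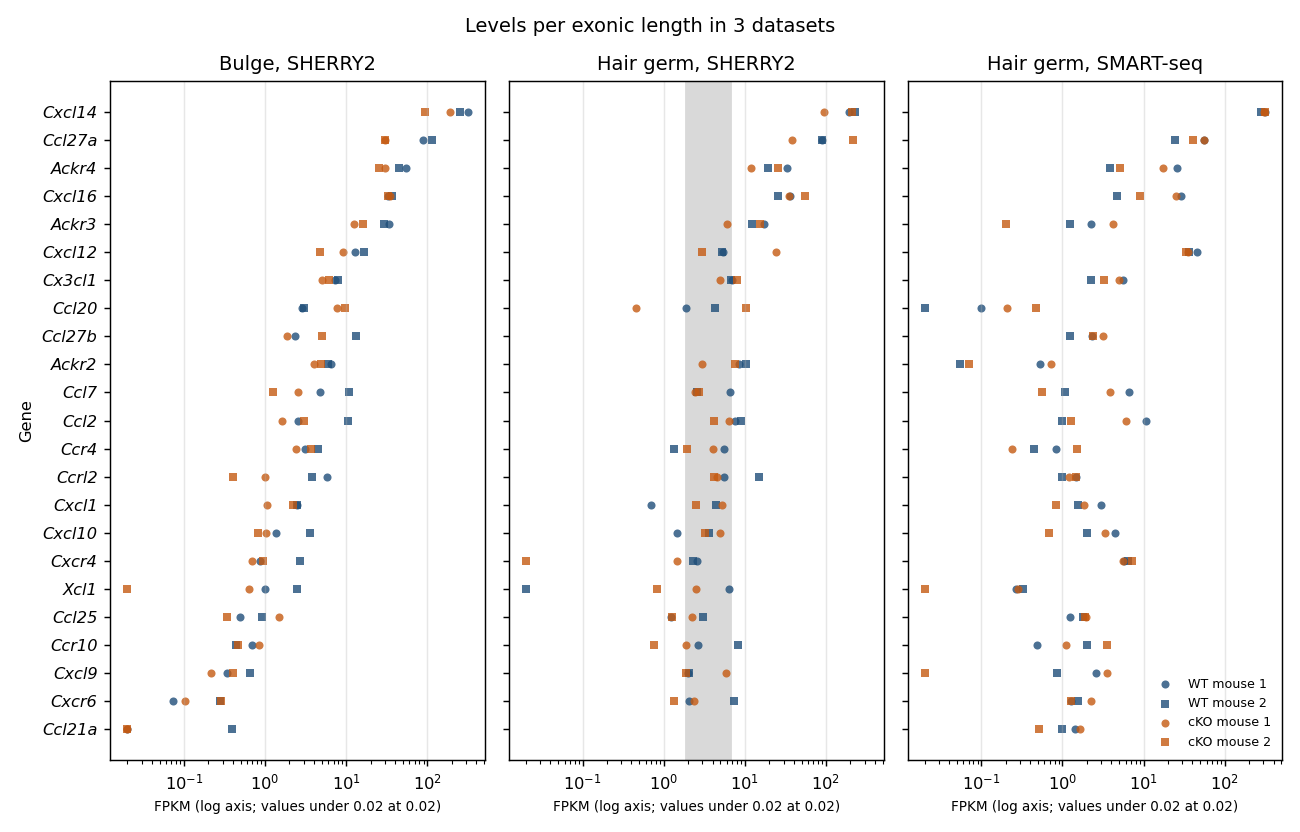
FPKM per library (log axis) of the members averaging at least 1 FPKM in the bulge or in SMART-seq, in the 3 datasets; blue is WT, orange is cKO, circles are mouse 1 and squares mouse 2, and the grey band spans the 95th percentile of olfactory and vomeronasal receptor genes over the 4 hair germ SHERRY2 libraries (1.87 to 6.67 FPKM). Cxcl14 and Ccl27a lie far to the right of the band, and most lower members lie inside it.

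No member passed by genotype in hair germ SHERRY2. Of 55 members tested with limma 0 were called, beside 0.0077% of 38953 genes. At an unadjusted p under 0.05 there were 4 members, beside 4.62% of those genes. edgeR on recovered reads called 0 of 26 and DESeq2 0 of 57, and in the authors' deposited table the smallest adjusted p of a member is 0.9997 and the smallest unadjusted p is 0.0838. In 10 of the 55 both cKO libraries were below both WT libraries and in 7 above, beside 16.4% and 16.4% of all genes. Fold changes below are on the log2(normalized count + 1) scale, which understates changes of low genes.

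Ccl27a had normalized counts of 318 and 163 in WT and 103 and 978 in cKO (log2 difference 0.48 ± 1.08, limma adjusted p = 0.982), so the cKO mice lay on either side of the WT mice. Cxcl14 had 514 and 324 in WT and 194 and 725 in cKO. Ackr4 had 260.3 and 80.6 against 72.6 and 264, and Ackr3 had 84.2 and 31.6 against 22.7 and 98.0. In all 4 of these genes cKO mouse 1 was lowest and cKO mouse 2 was above WT mouse 2, and their differences were 0.48, -0.12, -0.06 and -0.12. Of the stem cell markers, Krt14, Krt5 and Krt15 followed a like order, with Krt14 at 8277 and 5151 CPM in WT and 5081 and 13690 in cKO, but Lhx2 (40.9 and 39.7 in WT, 441 and 34.7 in cKO), Lgr5, Cdh3 and Tcf7l1 were highest in cKO mouse 1. Markers of differentiated epidermis summed to 10120 and 1155 CPM in WT and 1609 and 3782 in cKO. The part of any of these in the values was not tested.

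The difference of Cxcl12 rested on 1 library: 301 of its reads were in cKO mouse 1, against 67, 21 and 56 elsewhere (1.09 ± 0.71, limma adjusted p = 0.97), and without cKO mouse 1 the log2 difference was -0.03. That library also stood apart in markers: the stem cell gene Lhx2 had 791 reads there against 55, 33 and 56, Lgr5 136 against 25, 12 and 25, the melanocyte gene Dct 120 against 36, 12 and 17, and the fibroblast gene Col1a2 107 against 27, 19 and 23. It was the only one of the 4 with more than 1 read of Y-linked Kdm5d, and the part of these differences in Cxcl12 was not tested. Ccrl2 had 21.5 and 30.0 normalized counts in WT and 13.2 and 20.4 in cKO, apart by a small step (-0.60 ± 0.58, limma adjusted p = 0.97). The 5 members with the largest differences were Ccl24 (-1.65), Ccl3 (1.58), Cxcr4 (-1.53), Ccr10 (-1.28) and Cxcl1 (1.23), each with a limma adjusted p of 0.97. Ccr10 had 7 reads in each WT library against 5 and 3 in cKO, and Cxcl1 had 2 and 4 against 15 and 11, so these rest on few reads near the background.

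Whether the genotype effect differed between datasets was tested with a dataset-by-genotype term in edgeR, and the 2 tests share the bulge libraries. Against SMART-seq, 0 of 31 members passed, beside 0.0413% of 19371 genes, and 5 had an unadjusted p under 0.05, beside 6.665% of those genes. Ccl27a had the smallest p of the members, with a bulge effect lower by 2.14 ± 0.51 on the log2 scale (edgeR adjusted p = 0.552), followed by Ccrl2 (lower by 3.01 ± 0.75, edgeR adjusted p = 0.56) and Cxcl14 (lower by 1.23 ± 0.45, edgeR adjusted p = 0.723). Against hair germ SHERRY2, 0 of 46 passed, beside 0.119% of 26139 genes, and 5 had an unadjusted p under 0.05, beside 7.472% of those genes. There Ccl27a differed by -2.55 ± 0.71 (edgeR adjusted p = 0.258) and Cxcl12 by -2.47 ± 0.70 (edgeR adjusted p = 0.279). Single libraries decided these terms. Without hair germ cKO mouse 1 the term of Cxcl12 was -0.52 (edgeR adjusted p = 0.801), and it passed without bulge WT mouse 1, bulge cKO mouse 1, hair germ WT mouse 1 or hair germ cKO mouse 2. Ccl27a passed without hair germ WT mouse 1, WT mouse 2 or cKO mouse 1, but without hair germ cKO mouse 2 its term was -0.60. Against SMART-seq, the term of Ccl27a ran from -2.875 to -1.643 when single libraries were left out. With no filter on low counts, where 1.62% of all genes were called, 4 members passed against SMART-seq. They were Ccl27a, Ackr3, Ccrl2 and Cxcl14 (edgeR adjusted p = 1.265e-07, 0.004045, 0.006864 and 0.02693).

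Cxcl10 and Cxcl1 had opposite orders of groups in the 2 SHERRY2 datasets. Cxcl10 was lower in both cKO bulge mice, and in the hair germ it had 4.89 and 6.32 normalized counts in WT and 12.5 and 13.9 in cKO. The difference of Cxcl10 between datasets was -2.44 ± 1.05 (edgeR adjusted p = 0.616), and that of Cxcl1 was -1.80 ± 1.15 (edgeR adjusted p = 0.787), so neither passed. In the main fits, calls for Ccl27a, Ackr3, Ackr4 and Ccrl2 in the bulge are thus not shown to be particular to the bulge.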

How the data were processed

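RNA-seq of 12 libraries was analysed, and the 16 m6A libraries were not analysed here. Groups and mouse numbers were taken from the sample titles. The deposited bulge table holds read counts, FPKM and an exonic size per gene, and the FPKM of the authors followed from these with a largest relative difference of 0.495%. That table names no build, so its gene positions were used only to find overlapping genes. The SMART-seq counts per gene were deposited as whole reads. For hair germ SHERRY2, the deposited table holds a normalized signal (counts divided by a size factor), the authors' log2 fold changes and their p-values. Its values were whole multiples of 1 step in 100% of cases within 0.01 reads, so whole reads were recovered. Per the submitters' processing notes, the tools named for SHERRY2 include STAR, featureCounts, Trim Galore and DESeq2 (builds GRCm38 and mm10), and for SMART-seq also fastp, HISAT2, Subread and GRCm39. The sources used here state neither versions nor the use of strand.

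Counts were tested with edgeR 4.0.16 (quasi-likelihood, TMM, filterByExpr) in R 4.3.3, and hair germ SHERRY2 with limma 3.58.1 on log2(normalized count + 1), with an intensity trend, keeping genes whose mean was 1 or more. Tests were two-sided and fitted over all genes, with Benjamini-Hochberg adjustment at 0.05. The code was also run on simulated counts with the same spread setting for every gene, which does not measure error rates in these data. DESeq2 1.42.0, RLE scaling, no filter, pseudocounts of 0.1 and 5, a replicate block and leaving out each library were tried. FPKM of the hair germ datasets used the exonic sizes of the bulge table. p-values rest on the spread between 2 mice per genotype, moderated toward a trend over all genes tested. When a library is left out, the lone library in its group adds no spread of its own.

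Members and lists (member roles, chemokine receptor signalling, NF-kB targets, interferon response, cell type markers, olfactory and vomeronasal genes) were chosen with earlier results of these data known. Named with values were members past 0.05, the 10 highest by mean FPKM and the 5 largest fold changes per dataset, and members at 1 CPM or more, with values per library from 5 CPM in the bulge and SMART-seq. In hair germ SHERRY2, where background genes reach that level, lower members are given by counts. Promoter sequences came from RefSeq (GRCm38.p6).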

Additional observations from a re-analysis of the deposited data

How the results depend on the processing

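In the bulge, 4 members were called (3.04% of all genes), against 7 with DESeq2 (4.40%), 10 with no filter on low counts (5.75%), 5 with RLE size factors (3.38%), 5 with the replicate block (3.23%), and 3 to 9 when each library was left out (1.28 to 9.53%). Ccl27a, Ackr3 and Ackr4 were called under each of these. In both hair germ datasets 0 members were called under every alternative run. Between the bulge and SMART-seq, 4 members differed with no filter on low counts (1.62% of all genes) and 0 to 1 without single libraries. Between the bulge and hair germ SHERRY2, 0 differed with RLE size factors (0.126% of all genes), no filter on low counts (0.0242%) or the replicate block (0.2525%). The cause was not tested. Leaving out single libraries, bulge log2 fold changes ran from -3.69 to -2.43 for Ccrl2, -2.74 to -1.53 for Ccl7, -2.33 to -0.35 for Ccl2, -2.09 to -0.77 for Cxcl10, -1.87 to -0.28 for Cxcr4, -1.75 to -0.84 for Cxcl12, -1.74 to -0.77 for Cxcl14 and -1.43 to -0.34 for Cxcl1. Reversed signs came in genes with no call. With the replicate block, Ackr3 in SMART-seq was at -0.58, and with DESeq2 on recovered reads, hair germ SHERRY2 gave 0.049 for Ackr3 and 0.13 for Cxcl14. Leaving out single SMART-seq libraries, log2 fold changes ran from -3.11 to 1.20 for Ackr3, -1.53 to 1.55 for Ackr4, -2.78 to 1.04 for Ccl7, -0.16 to 2.21 for Ccr10, -0.25 to 0.98 for Ccl27a, -0.19 to 0.41 for Ccrl2 and -0.043 to 0.17 for Cxcl14. In hair germ SHERRY2 they ran from -1.15 to 0.91 for Ackr3, -0.99 to 0.86 for Ackr4, -1.14 to 2.10 for Ccl27a, -1.07 to 0.83 for Cxcl14 and -0.030 to 2.22 for Cxcl12. Differences between the bulge and SMART-seq ran from -2.51 to 1.83 for Ackr3 and -2.58 to 0.51 for Ackr4, and those against hair germ SHERRY2 from -1.48 to 0.13 and from -1.28 to 0.23. No label says what mice of the same number share, and with 2 pairs the numbers were not taken as pairing, although SMART-seq libraries divided by number as reported. The correlation of same-numbered deviations was -0.07 in the bulge, 0.23 in SMART-seq and -0.44 in hair germ SHERRY2. With the replicate block Cxcl14 passed in the bulge (-1.25, edgeR adjusted p = 0.0254). A crossed pairing of hair germ SHERRY2, chosen after seeing the data, called 0 members and 468 genes. Depth limits hair germ SHERRY2 most, where 3 reads are worth 1.67 to 3.60 CPM.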
